A study of Mus musculus with 21 samples.

Results

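The *Hox* genes described here are 38 of the 55400 genes counted in cultures of mouse embryonic stem cells (mESCs) differentiating into motor neurons (MNs). They were taken by name from the 4 *Hox* clusters: 10 genes of the *Hoxa* cluster on chromosome 6, 10 of the *Hoxb* cluster on chromosome 11, 9 of the *Hoxc* cluster on chromosome 15 and 9 of the *Hoxd* cluster on chromosome 2. They are ordered by paralog number, which runs from the end of a cluster transcribed towards the head to the end transcribed towards the tail. Paralogs 1 to 3 are called anterior here (7 genes), 4 to 8 central (15 genes) and 9 to 13 posterior (16 genes).

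All cultures were wild type and came from C57BL/6 mESCs that had been kept on mitotically inactive mouse fibroblasts. Embryoid bodies received 1 μM retinoic acid (RA) and 0.5 μM of the Sonic hedgehog agonist SAG from day 2. The protocol adds 5 μM DAPT, a Notch pathway inhibitor, from day 4 for motor neurons of the hypaxial column. On day 5 it changes the medium to one with DAPT but without RA and SAG. Untreated cultures were harvested on day 4 (D4), 8 h later (D4H8), on day 5 (D5) and on day 6 (D6). Cultures named D4H8_GSKJ4, D5_GSKJ4 and D6_GSKJ4 received GSKJ4, an inhibitor of the H3K27 demethylases Kdm6a and Kdm6b, for 1 day before harvest. Each of the 7 groups had 3 biological replicates, so 21 libraries of polyadenylated RNA were compared. The dose of GSKJ4 and the vehicle given to the untreated cultures are not given in the sources used here.

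*Hox* genes encode homeodomain transcription factors that give cells along the body axis their position. In the hindbrain and spinal cord, retinoic acid turns on the anterior and central genes, while Fgf and Gdf11 signals with Cdx factors turn on more posterior ones. In MNs, different *Hox* genes mark columns and pools along the cord. Before activation the clusters carry the repressive histone mark H3K27me3, which Polycomb proteins write and which Kdm6a and Kdm6b remove.

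Library totals ran from 14982115 to 34383842 reads counted on genes, with a median of 16238435, and the deepest was D4H8 replicate 1. One library, D5_GSKJ4 replicate 2, listed 39381 genes at 0, where the others had 29339 to 32805. Markers of the MN lineage were present, with a summed level over 10 genes of 98.8 to 153.9 FPKM at D4 and 1776 to 2037 FPKM at D6. Pluripotency markers were still detected, with a summed level over 8 genes of 133.7 to 310.2 FPKM at D4 and 13.2 to 109.1 FPKM at D6, whereas 8 forebrain and midbrain markers together stayed at 3.33 FPKM or less. In bulk cultures, fewer cells of a type and less RNA per cell cannot be told apart. FPKM values are given below in the order of replicates 1, 2 and 3, and ± gives the SD over 3 libraries. A gene is said to rise or fall where edgeR's quasi-likelihood test gave a Benjamini-Hochberg adjusted p under 0.05 over all genes tested.

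Anterior and central *Hox* genes were transcribed, and posterior ones hardly at all. A group mean of at least 1 FPKM was reached by 22 of the 38 genes in an untreated stage and by 25 in any of the 7 groups. The 13 genes that reached it nowhere were all posterior. Of the 16 posterior genes *Hoxb9* reached it in untreated stages, while *Hoxc9* and *Hoxd9*, like the central gene *Hoxc8*, reached it only in GSKJ4 groups. *Hoxa11*, *Hoxc10*, *Hoxc11*, *Hoxc12*, *Hoxd10*, *Hoxd11* and *Hoxd12* had between 1 and 17 counts summed over all 21 libraries. *Hoxc10*, a marker of lumbar MNs, was listed at 0 in 16 libraries and reached 0.2 FPKM in its highest. These totals leave no level that could be compared between stages.

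Over the 12 untreated libraries *Hoxa5* had the highest mean of the 38 genes (108.9 FPKM), and the leading gene of each other cluster was also of paralog 4 or 5: *Hoxb5* (70.6 FPKM), *Hoxc4* (58.6 FPKM) and *Hoxd4* (19.1 FPKM). *Hoxa5* and its paralog *Hoxc5* are needed by phrenic MNs, which innervate the diaphragm and belong to the hypaxial column. *Hoxc6*, a marker of brachial MNs, averaged 1.99 FPKM over the same libraries. *Hoxc8*, used in more caudal brachial pools, averaged 0.73 FPKM, and *Hoxc9*, a thoracic determinant, 0.49 FPKM.

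**Figure D1:**
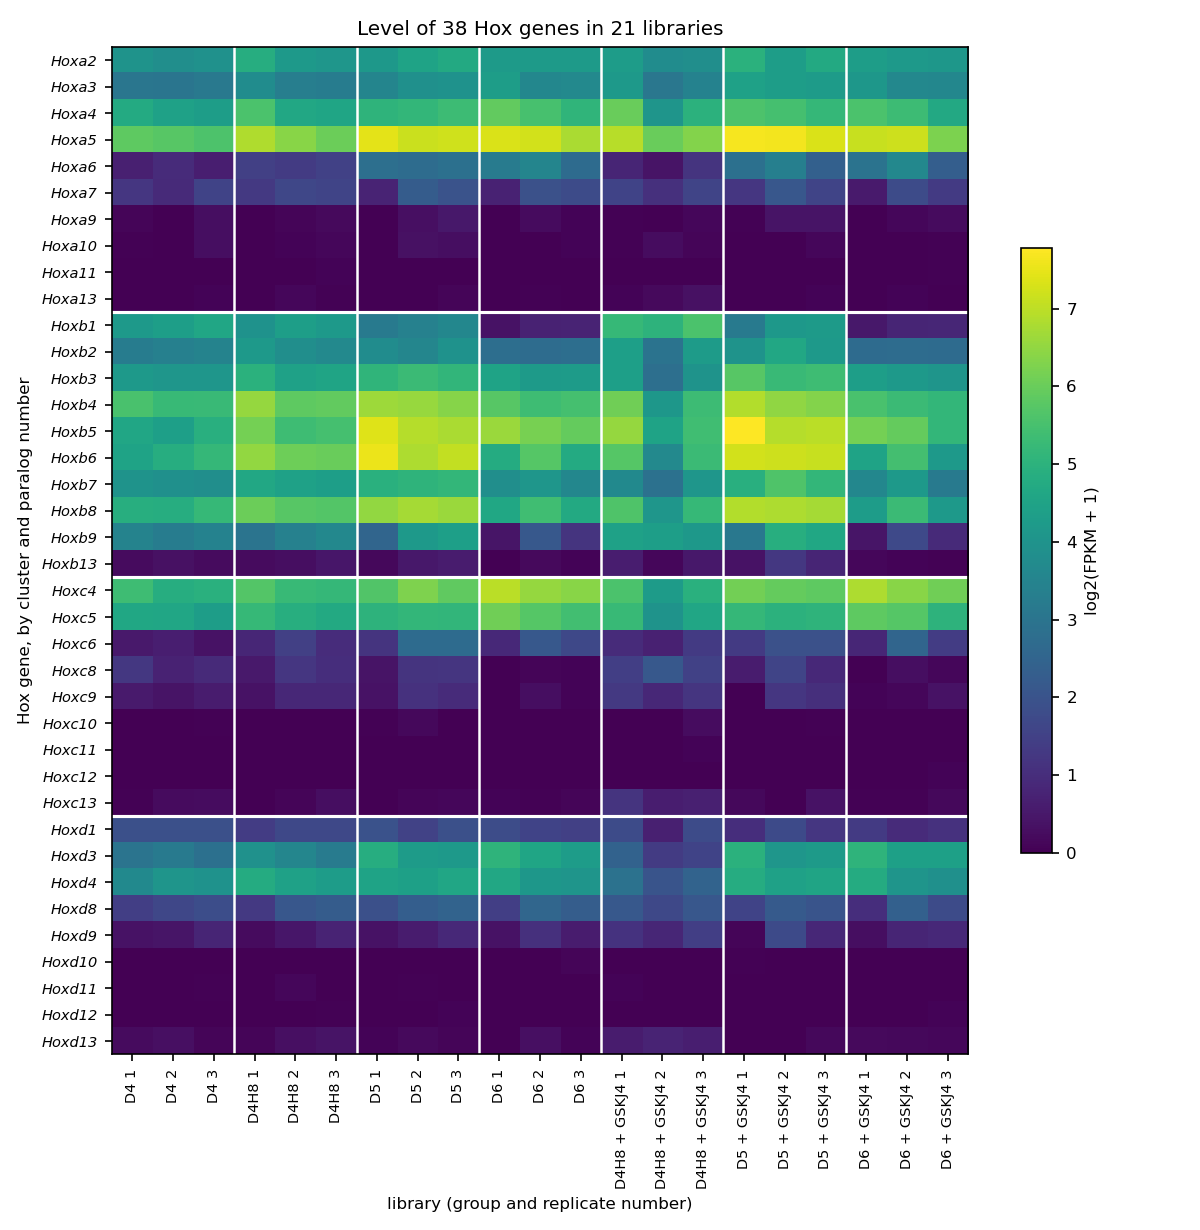
Heat map of log2(FPKM + 1) for the 38 *Hox* genes (rows, by cluster and paralog number) in the 21 libraries (columns, by group and replicate number). The 6 rows with the highest untreated mean are *Hoxa5*, *Hoxb5*, *Hoxb6*, *Hoxb4*, *Hoxc4* and *Hoxb8*, and posterior rows are dark in each group, with *Hoxb9* the exception.

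RefSeq promoters on GRCm38.p6 were at hand for 22 of the 38 genes, in 24 windows. The 250 bases before the RefSeq start are shown for *Hoxd3*, *Hoxd4* and *Hoxb1*, the genes with such a promoter that were called with GSKJ4 at D4H8. Capitals mark TTTATG, the letters of a Cdx site, in *Hoxd3* and *Hoxd4*, TATAAA, read on the opposite strand as TTTATA, in *Hoxd4*, and TGATNNAT, the letters of a Hox-Pbx site, in *Hoxb1*. Each motif was searched on both strands, and no marked match overlaps another. The windows lie at chr2:74711743-74711992, chr2:74721728-74721977 and chr11:96365508-96365757, all on the plus strand.
Hoxd3: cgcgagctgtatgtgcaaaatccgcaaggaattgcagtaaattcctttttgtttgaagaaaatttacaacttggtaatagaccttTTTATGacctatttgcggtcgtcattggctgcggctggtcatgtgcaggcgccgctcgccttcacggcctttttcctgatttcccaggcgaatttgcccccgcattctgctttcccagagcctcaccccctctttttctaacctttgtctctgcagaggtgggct
Hoxd4: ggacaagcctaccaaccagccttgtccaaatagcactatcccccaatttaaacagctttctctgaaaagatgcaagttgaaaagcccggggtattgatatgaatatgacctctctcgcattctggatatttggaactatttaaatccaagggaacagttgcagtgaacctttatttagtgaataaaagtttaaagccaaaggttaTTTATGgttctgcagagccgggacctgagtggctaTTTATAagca
Hoxb1: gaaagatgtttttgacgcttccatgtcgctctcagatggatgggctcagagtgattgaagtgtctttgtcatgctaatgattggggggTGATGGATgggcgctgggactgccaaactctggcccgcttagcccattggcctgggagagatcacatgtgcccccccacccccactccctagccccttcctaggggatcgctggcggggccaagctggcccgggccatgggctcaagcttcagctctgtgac
TTTATG occurred in 10.8% of all 32851 promoter windows of this length and in 5 of the 24 *Hox* windows. TATAAA occurred in 12.4% of all windows and in 4 of the 24, and TGATNNAT in 7.68% of all and in 4 of the 24. DR5 retinoic acid response elements (repeats 5 bases apart) were found in 0.0883% of all windows and DR2 elements (2 bases apart) in 0.174%, and neither was found in the 24. In GC content the windows differed, with 40.4% in *Hoxd4*, 49.2% in *Hoxd3* and 59.2% in *Hoxb1*. A match describes letters only, and no match says only that these letters are not in the window.

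The *Hoxd3* and *Hoxd4* values are not independent. In GENCODE M21 both genes start within a few bases of each other on chromosome 2 (74711927 and 74711929, plus strand), and 62.3% of the exonic bases of *Hoxd3* and 52.3% of those of *Hoxd4* are shared with another gene on the same strand, namely with each other or with *Gm28230*. The RefSeq starts used for the windows above differ from these, and the *Hoxd4* window (74721728 to 74721977) lies downstream of its GENCODE start. The counting strand is not given in the sources used here, so *Hoxb3* (52.9% of exonic bases), *Hoxa11* (35%), *Hoxb2* (27.3%), *Hoxa3* (25.4%) and *Hoxa7* (20.4%) cannot be told apart from their antisense partners over those bases. The same holds for *Hoxa4* (16%), *Hoxd4* (11.8%), *Hoxd3* (8.8%) and *Hoxb5* (3.6%). Among these partners *Hoxb3os*, which overlaps *Hoxb2* and *Hoxb3*, was at 3.23 ± 0.39 FPKM at D4 and 2.06 ± 0.07 FPKM at D6 (SD, n = 3). The values given below for *Hoxaas2*, which overlaps *Hoxa3*, and *Hoxb5os*, which overlaps *Hoxb5*, are higher.

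The first comparison asked how the *Hox* genes changed in the 8 h after D4. The protocol adds DAPT from day 4, so stage and exposure to DAPT cannot be told apart in any comparison with D4. Of the 28 *Hox* genes that passed the filter on low counts, 4 rose and 0 fell (0 lower ones by DESeq2 or at an unadjusted p under 0.05), where 4.06% of all 17519 genes tested rose and 0.32% fell. The 10 genes not tested are posterior. *Hoxb6* rose from 21.6, 27.9 and 34.9 FPKM at D4 to 90.2, 66 and 63.1 FPKM at D4H8, with no overlap between the stages (log2 fold change 1.35, SE 0.27, adjusted p = 0.00939). *Hoxa6*, a low gene, rose from 0.6, 0.94 and 0.56 FPKM to 1.76, 1.55 and 1.83 FPKM (log2 1.24, SE 0.33, adjusted p = 0.0494). *Hoxb5* rose by a log2 of 1.05 (SE 0.26) and *Hoxb8* by 0.83 (SE 0.18). So the genes that rose were of paralogs 5 to 8, and 3 of them lie in the *Hoxb* cluster.

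Same-numbered libraries of D4 and D4H8 deviated together, and with a replicate block 9 *Hox* genes rose (4.78% of all genes tested did). The block added *Hoxa5* (log2 0.66, SE 0.13), *Hoxb3* (0.52, SE 0.13), *Hoxb4* (0.73, SE 0.12), *Hoxb7* (0.56, SE 0.15) and *Hoxd3* (0.56, SE 0.14). Without the block these 5 genes had log2 fold changes of 0.54 to 0.75 and missed the threshold. The count rested on single libraries: without D4 replicate 1 or D4H8 replicate 1 no *Hox* gene was called by edgeR. At an unadjusted p under 0.05, 13 and 10 were higher in these fits, where 9.06% and 7.35% of all genes were. Without D4 replicate 2 only 1 was called, while DESeq2 called 9 in the whole set.

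Between D4H8 and D5 genes of all 4 clusters were called as rising, with *Hoxc6* alone in *Hoxc* and *Hoxd3* alone in *Hoxd*. From D4 to D4H8 these genes already had positive values (*Hoxc6* log2 1.34, SE 0.59, and *Hoxd3* 0.60, SE 0.26), not called without the block. Whether the steps differed was not tested. Of the 28 genes tested, 9 rose and 1 fell, where 17.2% of all genes rose and 10.5% fell. *Hoxc6* was at 0.79, 1.76 and 0.97 FPKM at D4H8 and at 1.26, 5.64 and 5.61 FPKM at D5 (log2 1.84, SE 0.54, adjusted p = 0.0204). Replicate 1 of D5 was within the D4H8 range and the other two were above it. The *Hoxc6* call was lost without D4H8 replicate 1 or 3 or D5 replicate 2 or 3 (edgeR adjusted p = 0.0724 to 0.0806). *Hoxa6* rose again, to 6.15, 5.77 and 6.31 FPKM (log2 1.82, SE 0.29, adjusted p = 0.000351). *Hoxb5* rose from 69.8, 40 and 43.6 FPKM to 166, 118 and 109 FPKM (log2 1.36, SE 0.26), and *Hoxb6* to 184, 112 and 133 FPKM (log2 0.97, SE 0.26), both without overlap.

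The other genes that rose were *Hoxa5* (log2 0.83, SE 0.22), *Hoxb3* (0.50, SE 0.16), *Hoxb7* (0.58, SE 0.16), *Hoxb8* (0.80, SE 0.18) and *Hoxd3* (0.92, SE 0.26). *Hoxb1*, which marks part of the hindbrain in the embryo and is an early RA target, was the gene that fell, from 14.7, 19.4 and 17.6 FPKM to 8.01, 9.57 and 11.1 FPKM (log2 -0.85, SE 0.19, adjusted p = 0.00392). With a replicate block *Hoxb4* (log2 0.43, SE 0.12) and *Hoxc4* (log2 0.62, SE 0.19) were also called. Without D4H8 replicate 2, D4H8 replicate 3 or D5 replicate 1 the 10 called genes became 5, 4 and 6.

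From D5 to D6 the clusters parted. In *Hoxb*, 9 of 10 genes fell, in *Hoxc* the 4 tested genes that were called split by paralog number, and in *Hoxa* and *Hoxd* no gene was called. Over the 4 clusters 2 genes rose and 11 fell, where 19.2% of all genes rose and 15.1% fell. The protocol withdraws RA and SAG on day 5, so stage and withdrawal cannot be told apart in any comparison of D6 with earlier stages. *Hoxb1* fell from 8.01, 9.57 and 11.1 FPKM to 0.29, 0.68 and 0.71 FPKM (log2 -3.98, SE 0.24, adjusted p = 2.71e-07). *Hoxb9* was at 4.78, 17 and 19.8 FPKM at D5 and at 0.36, 3.42 and 1.24 FPKM at D6 (log2 -2.94, SE 0.58, adjusted p = 0.00158), with replicate 1 the lowest at both stages. *Hoxb6* fell to 26.8, 51.4 and 25.9 FPKM (log2 -1.94, SE 0.27) and *Hoxb8* from 90.6, 106 and 96.4 FPKM to 24, 40.7 and 25.7 FPKM (log2 -1.58, SE 0.18).

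The other *Hoxb* genes that fell were *Hoxb2* (log2 -0.97), *Hoxb3* (-0.74), *Hoxb4* (-0.90), *Hoxb7* (-1.14) and *Hoxb13* (-2.23). *Hoxb5* had a log2 fold change of -0.67 (SE 0.26) and missed the threshold (adjusted p = 0.0584), and with a replicate block it was called at the same value. In *Hoxc*, the 2 genes of paralogs 4 and 5 rose while *Hoxc8* and *Hoxc9* fell. *Hoxc4* went from 49.4, 76.4 and 57.9 FPKM to 124, 92.2 and 82.4 FPKM (log2 0.83, SE 0.24, adjusted p = 0.0161), and *Hoxc5* from 31.9, 34.1 and 33.6 FPKM to 67.5, 51.8 and 41.6 FPKM (log2 0.81, SE 0.20, adjusted p = 0.00631). Each D6 library was above each D5 library for both genes.

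*Hoxc8* fell from 15, 59 and 57 counts at D5 to 1, 3 and 2 counts at D6, so its summed CPM was 21.9 times lower (95% exact interval 9.78 to 60.7, counting error only). *Hoxc9* had 93 counts over the D5 libraries and 10 over the D6 libraries, a ratio of 9.32 (interval 4.85 to 20.1). *Hoxb13* rested on 37 and 7 counts. At such counts the fitted log2 fold changes (-4.25 for *Hoxc8* and -3.05 for *Hoxc9*) depend on how low values are handled. Markers of other cells moved at the same step: 4 of the 5 tested genes of paraxial and lateral mesoderm fell, with a summed level over 8 genes of 17.6 to 20.3 FPKM at D5 and 3.05 to 5.79 FPKM at D6. *T* was near 0 at both stages, and *Dcn* and *Twist1*, 2 of 10 fibroblast markers, rose. Their part in the *Hox* values was not tested.

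**Figure D2:**
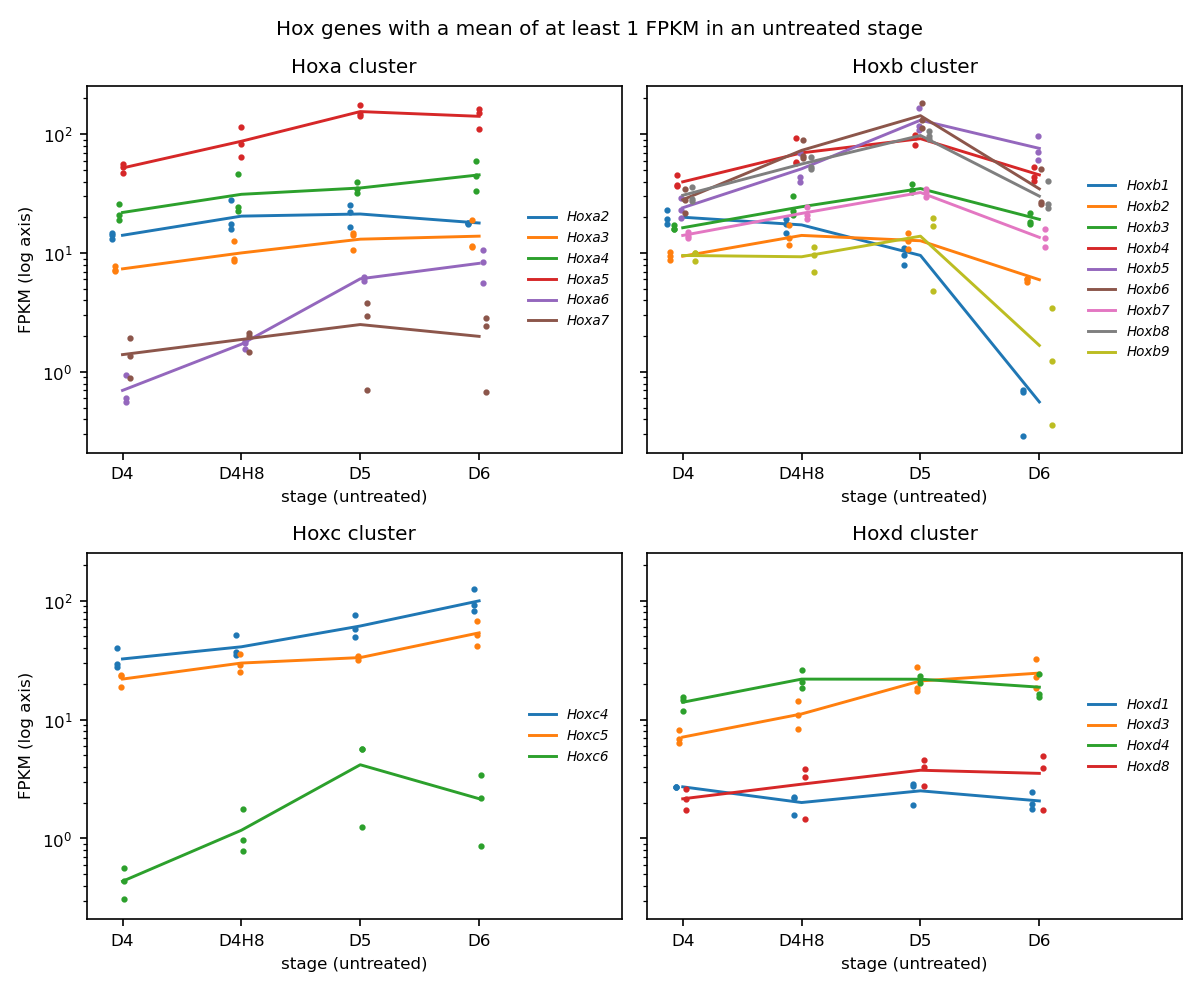
FPKM (log axis) of the 22 *Hox* genes with a mean of at least 1 FPKM in an untreated stage, by stage and cluster. Points are libraries, and lines join the means of 3. *Hoxb3* to *Hoxb9* peak at D5, while *Hoxa4*, *Hoxc4*, *Hoxc5* and *Hoxd3* have their highest mean at D6.

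From D4 to D6, the sum of these steps, 10 of the 28 genes rose and 5 fell, where 32.9% of all genes rose and 31% fell. The share that rose was thus close to that of all genes, and the share that fell was lower. *Hoxa6* rose from under 1 FPKM to 8.34, 10.6 and 5.62 FPKM (log2 3.60, SE 0.32, adjusted p = 3.38e-07). *Hoxa5* went from 55.9, 52.8 and 47.1 FPKM to 162, 152 and 110 FPKM (log2 1.51, SE 0.22), and *Hoxc4* from 40.1, 27.4 and 29.6 FPKM to 124, 92.2 and 82.4 FPKM (log2 1.68, SE 0.24). *Hoxd3* rose by 1.86 (SE 0.27), *Hoxc5* by 1.36 (SE 0.20) and *Hoxb5* by 1.74 (SE 0.26) on the log2 scale. *Hoxc6* was at 0.44, 0.56 and 0.31 FPKM at D4 and 0.86, 3.42 and 2.2 FPKM at D6 (log2 2.34, SE 0.59, adjusted p = 0.00315). *Hoxa3* (log2 0.99), *Hoxa4* (1.11) and *Hoxd4* (0.50) completed the genes that rose.

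*Hoxb1* fell from 17.6, 19.4 and 23.2 FPKM at D4 to under 1 FPKM at D6 (log2 -5.09, SE 0.24, adjusted p = 8.77e-10). *Hoxb9* fell from 10.1, 8.64 and 9.93 FPKM to 0.36, 3.42 and 1.24 FPKM (log2 -2.47, SE 0.57, adjusted p = 0.00182). *Hoxb2* fell by 0.59 (SE 0.16) on the log2 scale. *Hoxc8* had 163 counts over the D4 libraries and 6 over the D6 libraries, and *Hoxc9* had 60 and 10. The called genes that rose were thus of paralogs 3 to 6, and those that fell were of paralogs 1, 2, 8 and 9. Outside these numbers or against their direction, *Hoxd8* (log2 0.77, SE 0.37) and *Hoxa2* (0.40, SE 0.21) had positive values and were not called. The same held for *Hoxa7* (0.56, SE 0.54) and *Hoxd9* (0.52, SE 0.60). A link to paralog number was not tested. *Hoxb3*, *Hoxb4*, *Hoxb6*, *Hoxb7* and *Hoxb8*, which had their highest mean at D5, had log2 fold changes of 0.01 to 0.38 over this span and were not called.

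The share of each cluster in the summed FPKM of the 38 genes followed these steps. *Hoxb* held 51.5 ± 3.5% at D4, 56.2 ± 2.0% at D4H8, 59.5 ± 2.4% at D5 and 34.5 ± 2.4% at D6 (SD, n = 3). *Hoxa* held 24.6 ± 1.0% at D5 and 34.5 ± 0.9% at D6, and *Hoxc* 10.6 ± 2.3% and 23.5 ± 1.8%. The summed FPKM itself was 383, 357 and 379 at D4, 748, 546 and 512 at D4H8, 1007, 927 and 919 at D5 and 762, 681 and 541 at D6. The posterior genes together held 3.0 ± 0.2% at D4 and 0.43 ± 0.35% at D6. These shares are descriptions, and long genes and short genes weigh alike in them.

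The next comparison asked what 1 day of GSKJ4 did at D4H8. Over the 28 *Hox* genes tested, 2 rose and 2 fell, where 2.11% of all 16269 genes rose and 1.85% fell. At an unadjusted p under 0.05, 6 were higher and 7 lower, where 14.1% and 11% of all genes were. The 6 include *Hoxc13* and *Hoxd13*, whose place in the test is described below. Treated cultures held less *Hoxd3* and *Hoxd4* RNA and more *Hoxb1* and *Hoxb9* RNA than untreated cultures of the same stage. *Hoxd4*, a central gene that responds to RA in the embryo, was at 26.2, 20.9 and 18.6 FPKM in untreated and at 6.68, 3.09 and 4.6 FPKM in treated libraries (log2 -2.25, SE 0.28, adjusted p = 0.00895). *Hoxd3* was at 14.3, 10.9 and 8.33 FPKM and at 4.4, 1.57 and 1.94 FPKM (log2 -2.14, SE 0.38, adjusted p = 0.0246). For neither gene do the groups overlap, and each treated library was also below each D4 library (11.9 to 15.5 FPKM for *Hoxd4*, 6.31 to 8.19 FPKM for *Hoxd3*).

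Other transcripts of the same stretch of the *Hoxd* cluster showed low values too. *Gm28230*, which shares bases with *Hoxd3* and *Hoxd4*, was at 3.14, 3.73 and 3.18 FPKM in untreated and 0.34, 0.31 and 0.41 FPKM in treated libraries. *Haglr*, a non-coding RNA of the *Hoxd* cluster on the opposite strand, fell from 6.32, 4.58 and 4.62 FPKM to 2.64, 0.79 and 1.56 FPKM (log2 -1.70, adjusted p = 0.0459). *Hoxd1* (log2 -0.19, SE 0.47) and *Hoxd8* (0.04, SE 0.36), which flank the pair among the 38 genes, were not called. The *Hoxd* share of the summed *Hox* FPKM was 6.49 ± 0.57% without and 2.97 ± 0.26% with GSKJ4 (SD, n = 3). The reads of *Hoxd3*, *Hoxd4* and *Gm28230* in shared bases cannot be told apart. *Haglr* also shares some exonic bases with *Hoxd3*, and the counting strand is not given, so its values are not fully separate either.

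*Hoxb1* was at 14.7, 19.4 and 17.6 FPKM in untreated and 35.9, 31.3 and 46.4 FPKM in treated libraries (log2 1.09, SE 0.19, adjusted p = 0.0235). *Hoxb9*, at the other end of the expressed *Hoxb* genes, was at 6.91, 9.7 and 11.3 FPKM and at 21, 19.5 and 16.8 FPKM (log2 1.01, SE 0.22, adjusted p = 0.0427). The genes between them had values of the other sign or near 0: *Hoxb3* -0.91 (SE 0.34), *Hoxb4* -0.85 (SE 0.41), *Hoxb6* -1.18 (SE 0.42), *Hoxb7* -0.98 (SE 0.28) and *Hoxb8* -0.80 (SE 0.32) on the log2 scale, and *Hoxb5* -0.06 (SE 0.44). None of the 6 was called by edgeR's quasi-likelihood test without a replicate block. With the block, edgeR called all of them but *Hoxb5* as lower (adjusted p = 0.00494 to 0.0208). In that fit 5 *Hox* genes were higher and 7 lower, where 1235 and 1039 of all 16269 genes tested were. These libraries were not taken as paired. DESeq2 called *Hoxb6* and *Hoxb7*, and each of *Hoxb3*, *Hoxb4*, *Hoxb6*, *Hoxb7* and *Hoxb8* was called in 2 to 4 of 13 alternative analyses. Replicate 2 of the treated group was the lowest of its 3 libraries for these genes, for example 11.5 FPKM of *Hoxb6* against 52.1 and 38.7 FPKM. *Hoxa5* (log2 -0.04, SE 0.28) had 115, 82.7 and 64.2 FPKM without and 122, 63.4 and 79 FPKM with GSKJ4.

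*Hoxc13*, a posterior gene, was at 0.01, 0.07 and 0.22 FPKM in untreated and 1.26, 0.55 and 0.62 FPKM in treated libraries, on 12 and 99 counts over 3 libraries (log2 3.13, SE 0.79, adjusted p = 0.0579). DESeq2 called it (adjusted p = 0.00294), as did 4 of 12 alternative analyses in all. *Hoxc13* and *Hoxd13* passed the filter on low counts in the comparisons that held treated D4H8 libraries, where they were high, and in no other, so their direction is not read as a result. *Hoxd13* had 0.08, 0.25 and 0.32 FPKM without and 0.5, 0.71 and 0.56 FPKM with GSKJ4, on 29 and 73 counts. *Hoxc8* had 0.44, 1.35 and 1.01 FPKM and 1.7, 3.38 and 1.84 FPKM, with each treated library above each untreated one (log2 1.33, SE 0.48). Its edgeR adjusted p was 0.127, and it was called by DESeq2 and in 3 of 13 alternative analyses. *Hoxc9* (log2 0.85, SE 0.46) had 0.3, 0.84 and 0.82 FPKM without and 1.47, 0.82 and 1.28 FPKM with GSKJ4, and these overlap. *Hoxd9* had 0.18, 0.4 and 0.72 FPKM without and 1.2, 0.77 and 1.73 FPKM with GSKJ4, without overlap (log2 1.51, SE 0.54). Its edgeR adjusted p was 0.126, and it was called in 1 of 13 alternative analyses.

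Calls at D4H8 other than that of *Hoxd4* were lost in some fits without 1 library, as were most calls over all genes. Without 1 untreated library, calls over all genes went from 343 higher and 301 lower to 2 or 3 higher and 41 to 47 lower. Over all fits without 1 library, the log2 fold change was 0.96 to 1.18 for *Hoxb1*, 0.85 to 1.16 for *Hoxb9* and -2.70 to -1.89 for *Hoxd3*. *Hoxd4* was called in 13 of 13 alternative analyses, *Hoxb1* in 10, *Hoxd3* in 9 and *Hoxb9* in 7. Without any one of the 3 untreated libraries *Hoxd4* alone was called, and without treated replicate 3 the count was 2. Markers moved with the treatment as well: 6 of 10 genes of the MN lineage fell, with a summed level of 398.5 to 608 FPKM without and 91.3 to 234.6 FPKM with GSKJ4. Of 8 pluripotency markers 0 were called by edgeR or DESeq2 and 0 had an unadjusted p under 0.05, and their summed level was 60 to 256 FPKM without and 118.5 to 272.8 FPKM with GSKJ4. For 10 fibroblast markers it was 10 to 19 FPKM and 17.7 to 35.6 FPKM, and for 8 mesoderm markers 12.1 to 18.8 FPKM and 12.2 to 23.4 FPKM. The part of these cells in the *Hox* values was not tested.

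**Figure D3:**
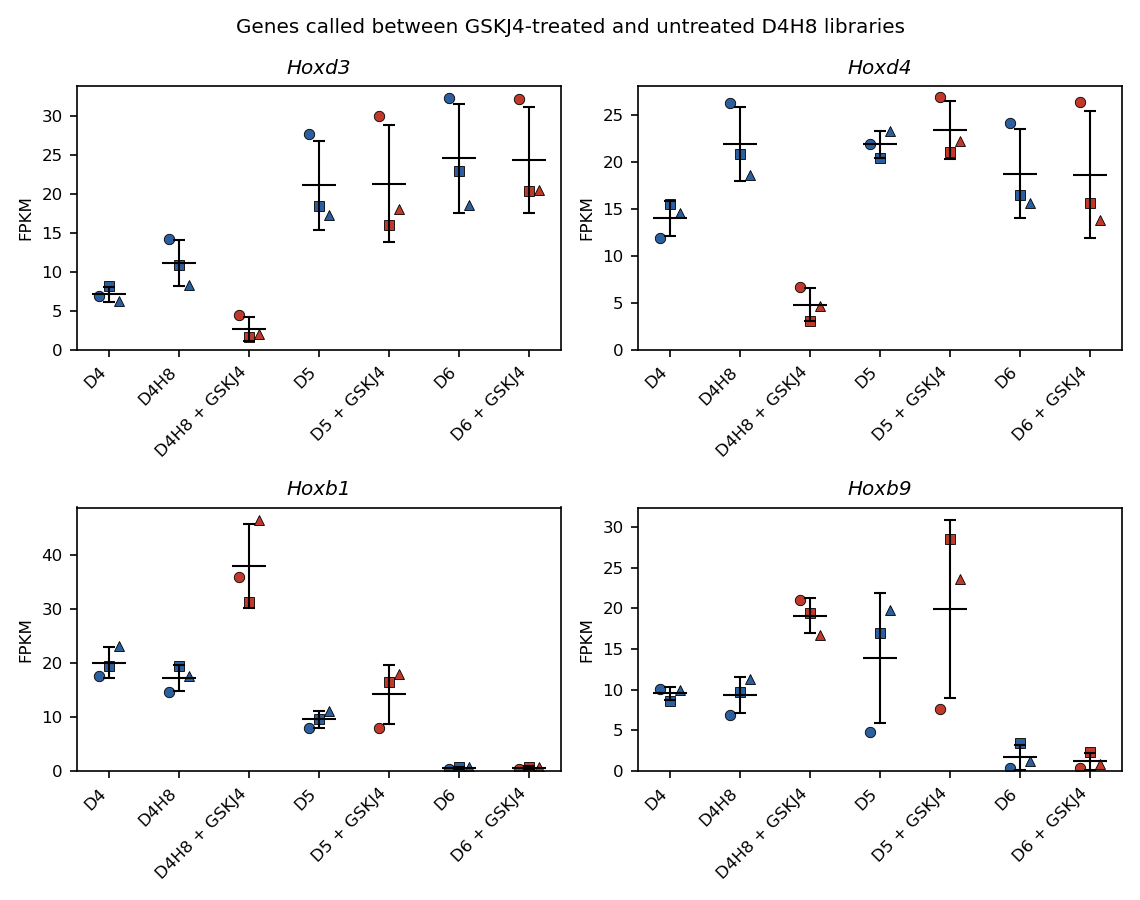
FPKM of *Hoxd3*, *Hoxd4*, *Hoxb1* and *Hoxb9* in each library of the 7 groups. Circles, squares and triangles are replicates 1, 2 and 3, blue is untreated and red is GSKJ4, and bars give mean and SD (n = 3). Treated D4H8 libraries lie below D4 and D4H8 for the *Hoxd* genes and above them for the *Hoxb* genes, while at D6 treated and untreated libraries overlap.

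At D5 no *Hox* gene was called. Of 27 genes tested 0 passed by edgeR's quasi-likelihood test or by DESeq2, where 0.00613% of all 16309 genes did by edgeR. At an unadjusted p under 0.05, 2 were higher and 0 lower, where 2.31% of all genes were higher and 2.39% lower. *Hoxa3* was at 10.6, 14.1 and 14.6 FPKM without and 20.9, 19.1 and 18.1 FPKM with GSKJ4 (log2 0.52, SE 0.16, edgeR adjusted p = 0.976). *Hoxb2* was at 12.7, 10.8 and 14.7 FPKM and 15.1, 24.5 and 17.5 FPKM (log2 0.53, SE 0.20). Treated libraries were above untreated ones in both, without overlap. *Hoxb1* (8.01, 9.57 and 11.1 against 7.97, 16.5 and 18 FPKM), *Hoxb3* (32.8, 38.3 and 33.6 against 53, 37.3 and 39.8 FPKM) and *Hoxc6* (1.26, 5.64 and 5.61 against 1.48, 2.8 and 2.82 FPKM) overlapped between groups. *Hoxd4* was at 21.9, 20.4 and 23.3 FPKM without and 26.9, 21 and 22.2 FPKM with GSKJ4 (log2 0.06, SE 0.17), and *Hoxd3* had a log2 fold change of -0.02 (SE 0.28).

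At D6 the test without pairing called no *Hox* gene, and the paired test called 6. Of 23 genes tested 0 passed by edgeR's quasi-likelihood test or by DESeq2, where 0% of all 16301 genes did by edgeR. At an unadjusted p under 0.05, 1 was lower, where 0.822% of all genes were. It was *Hoxd1*, at 2.47, 1.96 and 1.78 FPKM without and 1.52, 0.96 and 1.16 FPKM with GSKJ4 (log2 -0.77, SE 0.30). Of the 23 log2 fold changes 2 were above 0, with a median of -0.20, where the median over all genes tested was 0.00 and 51.1% were above 0. These values share the same libraries and rested in part on D6_GSKJ4 replicate 3. Without it, 10 of 23 were above 0, with a median of -0.06. Its summed *Hox* level was 406.7 FPKM, against 653.1 and 632.9 FPKM in replicates 1 and 2. Same-numbered D6 libraries deviated strongly together (correlations of 0.796, 0.488 and 0.629 over 15265 genes). With the replicate number as a block, 6 *Hox* genes fell and 0 rose, where 1.28% of all genes tested fell.

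The 6 genes are among the 8 with the highest untreated mean, and each was lower with GSKJ4 in each of the 3 pairs. *Hoxb5* was at 96.6, 70.9 and 60.3 FPKM without and 69.8, 60 and 34.5 FPKM with GSKJ4 (blocked log2 -0.51, SE 0.07, adjusted p = 0.000224). *Hoxb6* was at 26.8, 51.4 and 25.9 FPKM and 22, 42.6 and 17.3 FPKM (-0.38, SE 0.07), and *Hoxa4* at 59, 44.5 and 33 FPKM and 46.9, 38.8 and 25.1 FPKM (-0.31, SE 0.06). The blocked log2 fold changes of *Hoxb8*, *Hoxa5* and *Hoxc4* were -0.33, -0.28 and -0.21. Without the block the groups overlap for all 6 genes. *Hoxb3* (log2 -0.16, SE 0.15) and *Hoxb4* (-0.21, SE 0.17) were called in neither fit, and *Hoxc5* was at 67.5, 51.8 and 41.6 FPKM without and 56.9, 52.3 and 31.9 FPKM with GSKJ4. The summed level of the 10 MN markers was 1776 to 2037 FPKM without and 1782 to 2078 FPKM with GSKJ4.

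**Figure D4:**
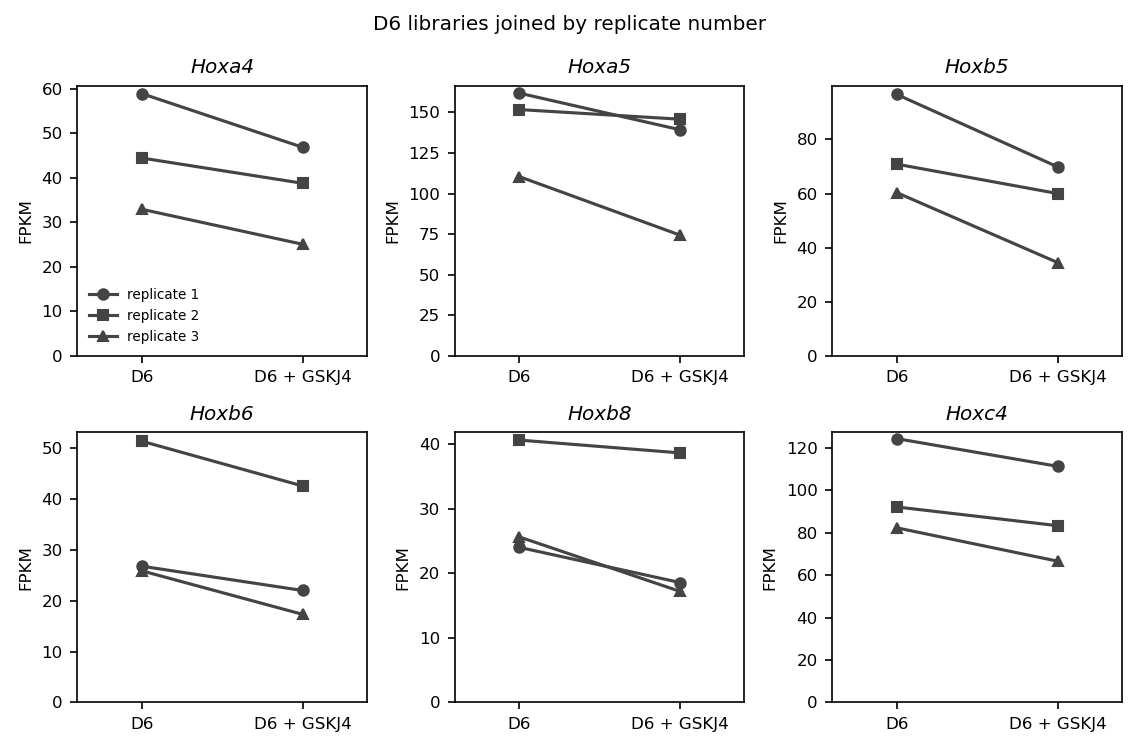
FPKM of the 6 *Hox* genes called at D6 with the replicate number as a block, with untreated and GSKJ4-treated libraries of the same number joined. Each of the 18 lines falls, and in each panel the treated values overlap the untreated ones.

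Whether the GSKJ4 effect itself differed between stages was tested by an interaction term. Of the 30 genes tested, edgeR called *Hoxd4* in both contrasts, and DESeq2 called *Hoxd4* and *Hoxd3* in both. Its GSKJ4 effect at D5 exceeded that at D4H8 by a log2 of 2.30 (SE 0.40, adjusted p = 0.0172), where 0.249% of all 18103 genes tested were called, and its effect at D6 exceeded that at D4H8 by 2.25 (SE 0.41, adjusted p = 0.0117), where 0.735% were. *Hoxd3* had differences of 2.11 (SE 0.54, adjusted p = 0.136) and 2.13 (SE 0.54, adjusted p = 0.0764) by edgeR, and was called in 4 and 6 of 19 alternative analyses. *Hoxb1* had -0.59 and -0.88 and *Hoxb9* -0.56 and -1.53, and edgeR called neither gene. The *Hoxd4* call held in 13 of 19 alternative analyses for D5 and 17 of 19 for D6. It was lost in the D5 contrast without D4H8 replicate 1, D4H8_GSKJ4 replicate 2 or 3, D5 replicate 2 or 3, or D5_GSKJ4 replicate 1, and in the D6 contrast without D4H8 replicate 1 or D6 replicate 3, with edgeR adjusted p-values up to 0.075.

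**Figure D5:**
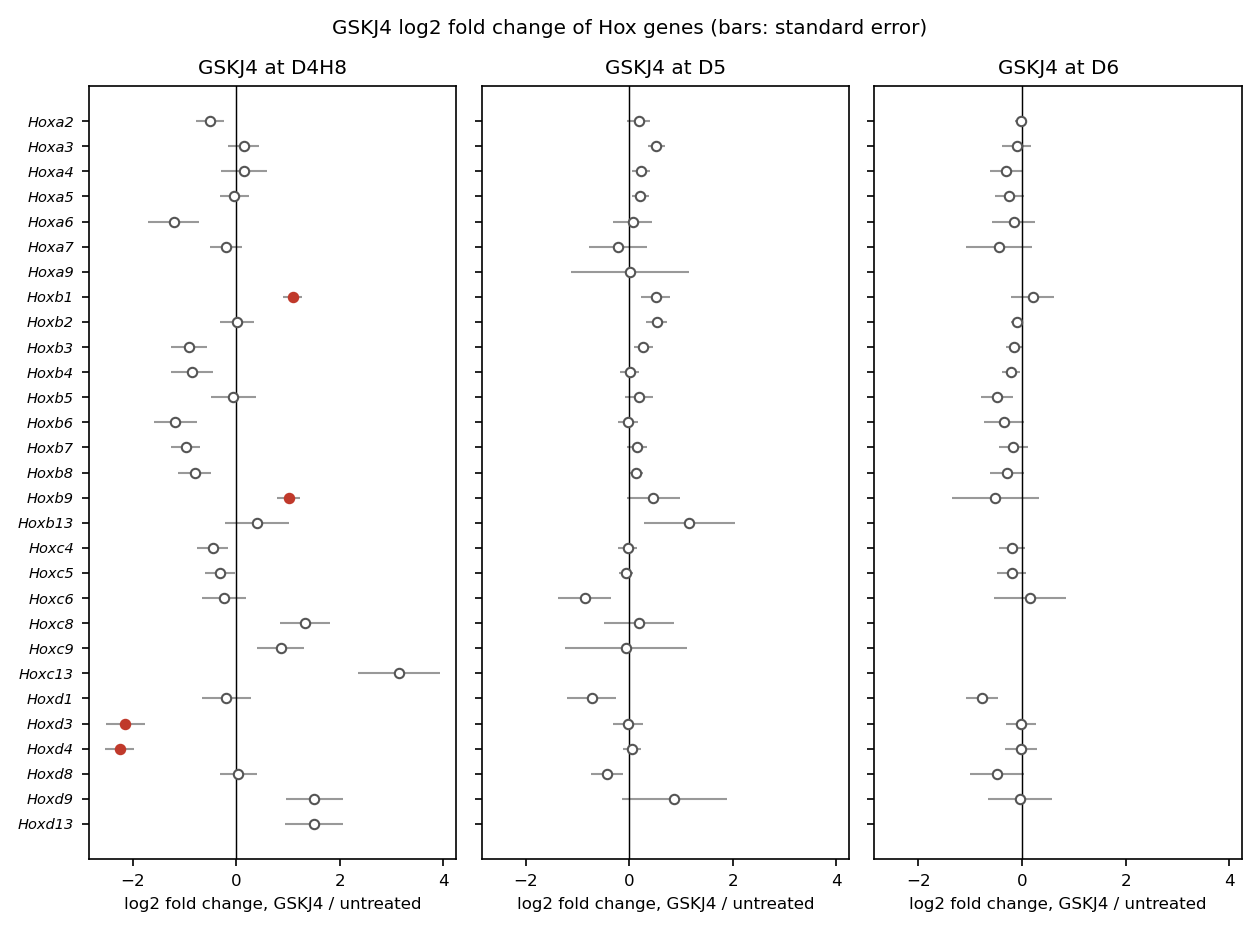
Log2 fold change between GSKJ4-treated and untreated libraries for the *Hox* genes tested at D4H8, D5 and D6. Points are edgeR estimates, bars are standard errors, red points have an adjusted p under 0.05 and a missing point is a gene not tested at that stage. Filled points occur at D4H8 for *Hoxb1*, *Hoxb9*, *Hoxd3* and *Hoxd4*, and at D6 most points lie slightly left of 0.

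Other genes of the *Hox* pathway were read against the same background. Of 9 cofactors, which bind DNA together with Hox proteins, 6 rose and 2 fell from D4 to D6, where 32.9% of all genes rose and 31% fell. *Meis3* went from 5.12, 6.67 and 5.36 FPKM to 52.5, 46.3 and 44 FPKM (log2 3.13), and *Pbx3* from 7.78, 6.89 and 6.31 FPKM to 37.7, 43 and 34.4 FPKM (log2 2.51). Of 14 upstream regulators 10 were tested, of which 3 rose and 4 fell, against the same shares of all genes. *Cyp26a1*, an RA-degrading enzyme and itself an RA target, fell from 92.2, 86.1 and 111 FPKM at D4 to 1.36, 3.71 and 2.7 FPKM at D6 (log2 -5.16), and *Cdx1* fell by 2.55 on the log2 scale, while *Cdx2* and *Cdx4* were near 0 throughout. With GSKJ4, edgeR called 0 genes of either list at any of the 3 stages. At D4H8, 5 of 9 cofactors and 2 of 11 regulators tested had an unadjusted p under 0.05, and DESeq2 called 0 and 2. Of all genes tested there by edgeR, 14.1% were higher and 11% lower at that p.

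Of 15 tested non-coding and flanking genes of the clusters, 8 rose from D4H8 to D5 (17.2% of all genes did), and 1 rose and 6 fell from D5 to D6 (19.2% and 15.1% of all genes). *Hoxb5os*, antisense in the *Hoxb* cluster, also had its highest mean at D5, with 16.6 ± 3.0 FPKM at D4, 63.1 ± 2.8 FPKM at D5 and 4.77 ± 2.06 FPKM at D6 (SD, n = 3). With GSKJ4 at D4H8, *Hoxaas2* of the *Hoxa* cluster fell from 16.2, 14.6 and 13.8 FPKM to 6.91, 2.87 and 5.64 FPKM (log2 -1.59, adjusted p = 0.0242), beside *Haglr*. *Hoxaas2* shares exonic bases with *Hoxa3* on the opposite strand, so the values of these genes are not fully separate. *Hotair* and *Hottip*, non-coding RNAs of posterior cluster ends, stayed near 0. Of 14 Polycomb and demethylase genes 4 rose and 6 fell from D4 to D6, where 32.9% and 31% of all genes did. *Kdm6b* was at 17.5 ± 4.4 and 40.1 ± 5.6 FPKM (log2 1.28) and *Ezh2* at 33.8 ± 1.6 and 15.7 ± 1.7 FPKM (log2 -1.05). With GSKJ4 at D4H8, edgeR called 0 of the 14 and DESeq2 called 3. At an unadjusted p under 0.05, 1 was higher and 3 were lower, where 14.1% of all genes were higher and 11% lower. At D5 and D6 both tools called 0 and 0 had an unadjusted p under 0.05.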

How the data were processed

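RNA-seq of 7 groups of 3 mouse cultures was used. Per the methods and labels, Fastp trimming was followed by HISAT2 alignment (mm10) and by HTSeq-count for genes. The authors deposited raw counts of 55400 genes in 21 libraries (14982115 to 34383842 per library) and FPKM values based on exonic length. FPKM recomputed from the counts differed by at most 0.005. The strand setting and the handling of ambiguous reads are not given in the sources used here. Symbols and positions came from GENCODE M21 (GRCm38), which matched 55140 identifiers. All columns of per-sample values were used, and the libraries compared in pairs within groups showed no duplicate (lowest mean chi-square per gene 6.94).

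Counts were tested with edgeR 4.0.16 in R 4.3.3 by the quasi-likelihood test, after TMM scaling and filterByExpr (min.count 10), and p-values were adjusted over all genes tested by the Benjamini-Hochberg method. Stage contrasts were fitted on 12 untreated libraries, each GSKJ4 contrast on its own 6, and the interaction terms on 18. Levels are FPKM, with no test. The study used DESeq2, run here (1.42.0) as an alternative. The tests were checked on simulated counts. Intervals of count ratios are exact and cover counting error only. The labels call replicates biological and name no litter, day or batch. Pairing was checked by correlating deviations from group means over 15265 genes: all 3 numbers were over 0.1 for neighbouring untreated stages (0.145 to 0.371) and for GSKJ4 at D6 (0.488 to 0.796). For D6 against D4, GSKJ4 at D4H8 and GSKJ4 at D5 the lowest were 0.0185, 0.0874 and 0.0564, so these were not taken as paired. Their highest correlations were 0.105, 0.479 and 0.261.

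The members and lists were chosen with earlier results of these data known. Values per library are given for up to 4 called genes with the largest log2 fold change per stage contrast, up to 5 genes with the lowest p per GSKJ4 contrast, the most abundant gene of each cluster, and *Hoxa5*, *Hoxc4*, *Hoxc5*, *Hoxc6*, *Hoxc8*, *Hoxc9* and *Hoxc10*. Values of other genes were chosen after they were seen. GSKJ4 contrasts and stage contrasts share the untreated libraries. Alternatives were a replicate block, leaving out each library, 1 fit over all 21 libraries, RLE or upper-quartile normalization, either no filter or a minimum of 10 counts in all libraries, DESeq2, and CPM per kilobase after TMM for levels. Figures used matplotlib 3.10.9 and sequences came from RefSeq (GRCm38.p6).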

Additional observations from a re-analysis of the deposited data

Results flagged for a closer look

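The GSKJ4 effect on *Hoxd4* differed between stages by an interaction term. It was 2.30 higher on the log2 scale at D5 than at D4H8 (SE 0.40) and 2.25 higher at D6 than at D4H8 (SE 0.41), both called by edgeR over 18103 genes. Untreated D4H8 libraries were at 18.6 to 26.2 FPKM and treated ones at 3.09 to 6.68 FPKM, while treated libraries at D5 (21 to 26.9 FPKM) and D6 (13.8 to 26.3 FPKM) overlapped the untreated ones. Both contrasts use the same D4H8 libraries, and part of the *Hoxd4* reads lies in bases shared with *Hoxd3* and *Gm28230*.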

How the results depend on the processing

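Counts of *Hox* genes called, given here for both directions together, moved by over 1.5 times as follows. For D4H8 against D4 the count of 4 became 9 with DESeq2, 11 with no filter, 9 with a replicate block and 0 with 1 fit over all 21 libraries (12 genes were higher at an unadjusted p under 0.05, as were 7.87% of all genes). For D5 against D4H8 the 10 became 4 in that single fit. For GSKJ4 at D4H8 the 4 became 8 with DESeq2, 11 with no filter and 12 with a replicate block. At D6 the replicate block moved 0 to 6. For the D5 interaction the 1 gene became 2 with DESeq2, 4 with no filter and 2 with the block, and for the D6 interaction 2, 3 and 2, and also 2 with at least 10 counts in every library and 2 in the single fit. The block moved no other count by over 1.5 times. Of the contrasts not taken as paired, 5 of 6 libraries correlated best with their own number for D6 against D4 and for GSKJ4 at D4H8, and 6 of 6 for GSKJ4 at D5, a hint from the data only. Leaving out 1 library at a time gave 0 to 5 genes for D4H8 against D4, 4 to 11 for D5 against D4H8, 11 to 13 for D6 against D5 and 14 to 16 for D6 against D4. It gave 1 to 5 for GSKJ4 at D4H8, 0 to 0 at D5 and at D6, and 0 to 2 for each interaction. Of the 71 log2 fold changes followed, 3 unpaired ones at D6 changed sign: leaving out 1 library gave -0.41 to 0.017 for *Hoxa5* (highest without D6_GSKJ4 replicate 3), -0.81 to 0.029 for *Hoxb6* (without D6 replicate 2) and -0.46 to 0.030 for *Hoxc4* (without D6 replicate 1). For D6 against D4 the median over all genes was -0.04, and -0.19 after upper-quartile normalization, where *Hox* calls were 9 higher and 5 lower. TMM-scaled levels differed from FPKM by factors of 0.932 to 1.05. The causes were not tested.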

Other observations

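*Hox* genes of paralogs 6 to 9 differed between replicates with the same number. Of 10 such genes with a mean of at least 0.5 FPKM over the untreated libraries, replicate 1 held the lowest value for 6 at D4H8, 1 at D4H8_GSKJ4, 8 at D5, 7 at D5_GSKJ4, 7 at D6 and 6 at D6_GSKJ4. *Hoxa7* was at 0.7, 3.84 and 2.98 FPKM at D5 and 0.68, 2.84 and 2.46 FPKM at D6, and *Hoxb9* at 7.63, 28.6 and 23.6 FPKM at D5_GSKJ4. Of 14 genes of paralogs 1 to 5, replicate 1 held the lowest value for 2, 0, 7, 3, 2 and 2 in the same groups. At D4 the 10 genes were spread over the replicates as 3, 4 and 3.

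In the treated group at D4H8, replicate 2 held the lowest value for all 14 genes of paralogs 1 to 5 and for 8 of the 10 of paralogs 6 to 9. Its summed *Hox* level was 284.5 FPKM, against 700.8 and 476.4 FPKM. *Olig2* was at 1.85 FPKM in that library and at 8.14 and 10.8 FPKM in the other two. No test was made of these patterns, which were noticed in the data.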
